A study of Mus musculus with 16 samples.

Results

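The 39 *Hox* cluster genes were followed in the hindlimb muscles of mice, chosen from the 24421 gene names of the count tables as those that consist of *Hoxa*, *Hoxb*, *Hoxc* or *Hoxd* and a number. *Hox* genes encode homeodomain transcription factors and lie in clusters on separate chromosomes, where their order follows the order in which they are used along the body axis, from anterior genes with low numbers to posterior genes with high numbers. Genes with the same number in different clusters are paralogs. In the developing limb, the posterior genes of the HoxA and HoxD clusters pattern the proximal to distal axis and posterior HoxC genes are active in the hindlimb, and adult limb cells keep part of this positional code.

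RNA with poly(A) tails was sequenced from whole gastrocnemius (Gas), a calf muscle of mostly fast fibers, and the soleus (Sol), a neighbouring muscle rich in slow fibers. Wild type (WT) mice carried *Lsd1*-floxed alleles without Cre, and LSD1-mKO mice carried *Lsd1* flox/flox with ACTA1-CreERT2, a tamoxifen-inducible Cre driven by a human skeletal actin promoter, so that cells other than muscle cells kept *Lsd1*. All mice were male C57BL/6 of 8 weeks, and all received tamoxifen at 75 mg/kg for 5 days and dexamethasone, a synthetic glucocorticoid, at 1 mg/kg for 7 days, so no muscle was free of either agent. The 16 libraries were 3 of WT and 5 of LSD1-mKO for each muscle.

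The libraries held from 10130415 to 24576377 reads assigned to genes. Levels are given in counts per 1000000 reads (CPM) after TMM scaling over the 16 libraries. Levels of single genes are compared with each other only as RPKM, the CPM per kilobase of exon. Sums over several genes and their shares are in CPM and are not scaled for gene length. A gene was tested when it passed the count filter of the comparison, and it was called when its adjusted p from the edgeR quasi-likelihood test, adjusted over all tested genes, was under 0.05. *Kdm1a*, which encodes LSD1, was at 14.1 ± 2.19 CPM in LSD1-mKO Gas (SD, n = 5) against 41.8 ± 5.69 in WT Gas (n = 3), and at 10.9 ± 1.72 in LSD1-mKO Sol against 34.1 ± 0.749 in WT Sol, without overlap in either muscle. The WT Gas replicate 3 stood apart on the first principal component of the Gas libraries, at 99.3 where the other Gas libraries lay between -31.9 and 23.7. Its mean log2 CPM over 75 ribosomal protein genes was 8.79, against 7.20 to 8.05 in the other Gas libraries, and that of WT Sol replicate 2 was 7.40 against 6.52 to 6.95 in the other Sol libraries. The labels name no batch, but the Gas and Sol counts came in separate tables with differently named runs, so muscle and any difference in library making cannot be told apart. In these whole muscles, fewer cells of a type and less RNA per cell cannot be told apart either.

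*Hox* transcripts formed a small part of the RNA, from 0.0256 to 0.0308% of the reads of a Gas library and from 0.0154 to 0.0189% of a Sol library. Of the 39 genes, 29 were detected in Gas and 30 in Sol, detection meaning a mean of at least 0.5 CPM over the 8 libraries of the muscle. The 1 gene that differed was *Hoxa6*, at a mean of 0.469 CPM in Gas and 0.621 in Sol. The HoxA cluster on chromosome 6 had 9 of 11 genes detected in Gas and 10 in Sol, the HoxB cluster on chromosome 11 had 8 of 10, the HoxC cluster on chromosome 15 had 7 of 9 and the HoxD cluster on chromosome 2 had 5 of 9, the last 3 with the same number in both muscles.

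Apart from *Hoxa6* in Gas, the genes below detection lay at the ends of the clusters. At the anterior end they included *Hoxb1* and *Hoxd1*. At the posterior end they were *Hoxb13*, *Hoxc12*, *Hoxc13*, *Hoxd11*, *Hoxd12* and *Hoxd13*. *Hoxd12* had 0 reads in all 16 libraries, and a count of 0 allows up to 3 reads, or up to 0.340 CPM in a Gas and 0.211 CPM in a Sol library, which covers counting error only. *Hoxd13*, a gene of the developing digits, had at most 1 read in a library. *Hoxd11* reached 0 to 5 reads in the Gas and 3 to 9 reads in the Sol libraries. *Hoxa13* was the only paralog 13 gene detected, at a mean of 2.65 CPM in Gas and 1.45 in Sol.

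The posterior genes held most of the *Hox* reads in both muscles, without scaling for gene length. Paralogs 9 to 13 held 66.0% of the summed *Hox* CPM in Gas and 67.3% in Sol, paralogs 5 to 8 held 26.3% and 21.7%, and paralogs 1 to 4 held 7.70% and 11%. Per length, *Hoxc10*, a hindlimb and lumbar gene, was the highest member in both muscles, at 42.4 ± 3.65 RPKM in Gas and 25.7 ± 2.13 in Sol (SD, n = 8 libraries of both genotypes). In Gas it was followed by *Hoxd8* at 18.6 ± 3.88, *Hoxd9* at 14.1 ± 3.70, *Hoxa10* at 8.53 ± 1.5 and *Hoxc9* at 7.71 ± 3.55 RPKM. The spreads of *Hoxd8* and *Hoxd9* overlapped, and *Hoxa10* lay within the spread of *Hoxc9*. In Sol the order was different, with *Hoxa10* at 5.98 ± 0.470, *Hoxd8* at 5.13 ± 0.889 and *Hoxc9* at 4.18 ± 1.28 RPKM, each within the spread of its neighbour. *Hoxa9* at 3.56 ± 1.02 and *Hoxc11* at 3.17 ± 1.44 came next, before *Hoxd9* at 2.60 ± 0.472. *Hoxb7* was the highest gene of the HoxB cluster, at 1.69 ± 0.866 RPKM in Gas and 1.30 ± 0.309 in Sol, and the other HoxB genes were at or below 0.898 RPKM in both muscles.

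**Figure D1:**
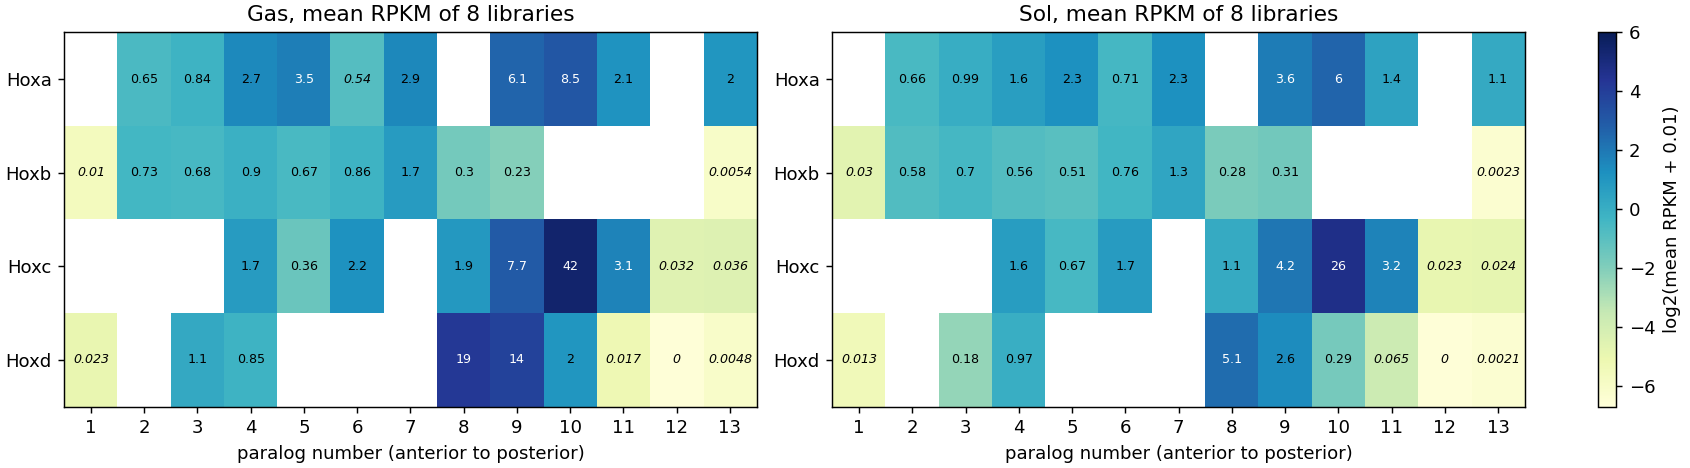
Mean RPKM of the *Hox* genes over the 8 libraries of Gas (left) and Sol (right), with the cluster as row and the paralog number as column. Colour gives log2(mean RPKM + 0.01), italic numbers mark genes below detection and white cells hold no gene or one that is not shown. *Hoxc10* was the highest gene in both panels, at 42.4 and 25.7 RPKM, and the cells of *Hoxd8*, *Hoxd9* and *Hoxd10* are darker in Gas than in Sol.

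The comparison of Gas with Sol in WT asks how the *Hox* code differs between 2 muscles of the same limb segment. Of the 5 tested HoxD genes, *Hoxd3*, *Hoxd8*, *Hoxd9* and *Hoxd10* were higher in Gas, by 2.08 to 2.87 on the log2 scale, and *Hoxc10* was higher by 0.84. *Hoxd4*, which lies next to *Hoxd3*, differed by -0.03. In all, 5 of 29 tested members were called, all 5 higher in Gas. Over all genes 7.81% were called and 3.8% were called higher in Gas, so the share among the members was above that of the table. The median log2 fold change of the tested members was 0.61, against 0.02 over all 12938 tested genes.

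The 5 HoxD genes that the muscles express lie on the plus strand of chromosome 2 (GRCm38) in the order *Hoxd10*, *Hoxd9*, *Hoxd8*, *Hoxd3* and *Hoxd4*. *Hoxd10* lies at chr2:74691924-74695105, *Hoxd9* at chr2:74697727-74700208, *Hoxd8* at chr2:74704615-74707933, *Hoxd3* at chr2:74711927-74748442 and *Hoxd4* at chr2:74711929-74729160. The annotated span of *Hoxd3* holds that of *Hoxd4*, and 1 long noncoding *Hoxd4* transcript starts in the first exon of *Hoxd3*, while their transcripts with a RefSeq match share 0 exon bases. The annotation that was counted may differ from this one, so how it split reads between *Hoxd3* and *Hoxd4* is not known. The promoters of these 5 genes are shown because the change from called to not called falls between the last pair of neighbours. They come from RefSeq, build GRCm38.p6, and run from 250 bases before to 50 bases after the start, at chr2:74691641-74691940, chr2:74697513-74697812, chr2:74704365-74704664, chr2:74711743-74712042 and chr2:74721728-74722027, in the order below, 5′ to 3′ on the plus strand. Capitals mark matches on either strand to 4 motifs, and no 2 matches overlap. The motif TATAAA is the core of the box that gives many promoters their start site. The motif CCAAT is bound by the NF-Y complex and GGGCGG by Sp1. The motif TGATNNAT is a core at which Hox proteins bind together with Pbx proteins.
Hoxd10: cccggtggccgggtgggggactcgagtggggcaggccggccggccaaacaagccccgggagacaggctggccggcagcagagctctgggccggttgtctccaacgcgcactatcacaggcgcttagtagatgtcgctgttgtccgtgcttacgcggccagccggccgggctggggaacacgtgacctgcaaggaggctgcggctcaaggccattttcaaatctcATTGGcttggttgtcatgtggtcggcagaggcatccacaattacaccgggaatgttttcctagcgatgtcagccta
Hoxd9: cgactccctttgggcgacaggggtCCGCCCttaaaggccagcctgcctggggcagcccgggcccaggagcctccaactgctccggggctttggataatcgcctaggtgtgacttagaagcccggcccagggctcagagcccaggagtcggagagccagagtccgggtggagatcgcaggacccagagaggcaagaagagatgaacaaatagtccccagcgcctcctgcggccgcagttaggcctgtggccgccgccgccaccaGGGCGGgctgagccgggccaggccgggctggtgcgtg
Hoxd8: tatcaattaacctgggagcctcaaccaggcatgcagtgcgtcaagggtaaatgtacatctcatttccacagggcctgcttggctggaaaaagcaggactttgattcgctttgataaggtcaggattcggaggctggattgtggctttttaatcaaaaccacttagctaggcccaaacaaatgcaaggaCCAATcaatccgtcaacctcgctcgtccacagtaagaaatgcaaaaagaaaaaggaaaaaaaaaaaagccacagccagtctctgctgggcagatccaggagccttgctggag
Hoxd3: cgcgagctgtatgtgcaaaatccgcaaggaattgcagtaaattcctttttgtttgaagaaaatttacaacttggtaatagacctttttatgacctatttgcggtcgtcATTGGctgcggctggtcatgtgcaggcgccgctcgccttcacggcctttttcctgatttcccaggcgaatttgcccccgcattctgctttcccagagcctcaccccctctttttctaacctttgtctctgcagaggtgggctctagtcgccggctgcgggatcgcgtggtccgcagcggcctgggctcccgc
Hoxd4: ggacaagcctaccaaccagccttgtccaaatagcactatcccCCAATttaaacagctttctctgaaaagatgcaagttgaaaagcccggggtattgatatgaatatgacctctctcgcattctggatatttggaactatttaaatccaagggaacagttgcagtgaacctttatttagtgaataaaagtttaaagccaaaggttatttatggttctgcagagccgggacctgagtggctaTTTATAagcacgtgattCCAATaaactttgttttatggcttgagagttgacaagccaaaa

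The 4 promoters of the genes higher in Gas held no TATAAA, which the *Hoxd4* promoter held once. CCAAT occurred once in those of *Hoxd10*, *Hoxd8* and *Hoxd3* and 2 times in that of *Hoxd4*, GGGCGG occurred 2 times in that of *Hoxd9*, and none of the 5 held TGATNNAT. Of all 32841 promoters of this length, 13.6% held TATAAA, 37.4% CCAAT, 35.7% GGGCGG and 8.85% TGATNNAT. The promoter table held 24 entries for 22 of the 39 members, of which 16.7% held TATAAA, 62.5% CCAAT, 41.7% GGGCGG and 16.7% TGATNNAT. The count of CpG sites was 22 in the *Hoxd10*, 20 in the *Hoxd9*, 6 in the *Hoxd8*, 20 in the *Hoxd3* and 4 in the *Hoxd4* promoter, against a median of 14.5 over the 24 *Hox* entries and 7 over all. Whether these promoter features have a part in the calls was not tested.

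*Hoxd9*, a paralog 9 gene of the proximal limb, was at 34.1, 40.0 and 36.9 CPM in the 3 WT Gas libraries and at 5.5, 6.88 and 6.42 in the 3 WT Sol libraries. The lowest Gas library was far above the highest Sol library. The log2 fold change was 2.57 (SE 0.203 and adjusted p = 0.00103, edgeR quasi-likelihood test). *Hoxd8*, the only central gene of its cluster, was at 57.8, 57.9 and 69.1 CPM in WT Gas and at 14.5, 15.0 and 14.6 in WT Sol. Its log2 fold change was 2.08 (SE 0.186 and adjusted p = 0.00152), with all Gas libraries above all Sol libraries. *Hoxd10*, a paralog 10 gene that also acts in the hindlimb and its motor neurons, was at 4.08, 5.02 and 4.19 CPM in WT Gas and at 0.855, 0.281 and 0.636 in WT Sol. The log2 fold change of *Hoxd10* was 2.87 (SE 0.386 and adjusted p = 0.00507), and the Sol values rest on few reads, from 4 to 16 over the Sol libraries of both genotypes.

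*Hoxd3*, an anterior gene of the cluster, was at 3.72, 2.42 and 6.01 CPM in WT Gas and at 0.481, 1.12 and 0.636 in WT Sol. The groups did not overlap, and the log2 fold change was 2.44 (SE 0.464 and adjusted p = 0.0199). The highest Gas value was that of replicate 3 and the highest Sol value that of replicate 2, the 2 WT libraries with a high ribosomal protein level, whose part in these values was not tested. Without WT Gas replicate 1, WT Sol replicate 1 or WT Sol replicate 3 the adjusted p of *Hoxd3* was 0.0583, 0.1000 and 0.105. *Hoxd4*, its neighbour, was at 1.52, 2.36 and 3.97 CPM in WT Gas and at 2.73, 2.60 and 2.49 in WT Sol, so the Sol libraries lay within the range of the Gas libraries. Its log2 fold change was -0.03 (SE 0.367 and adjusted p = 0.972), and its sign changed in 3 of the 6 fits that left out 1 library.

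*Hoxc10* was at 86.9, 88.4 and 75.5 CPM in WT Gas and at 48.1, 47.2 and 46.2 in WT Sol, without overlap. The log2 fold change was 0.84 (SE 0.181 and adjusted p = 0.0309). This call was the least stable of the 5, since the adjusted p rose above 0.05 in 5 of the 6 fits that left out 1 library, to at most 0.181, and *Hoxc10* remained called only in the fit without WT Gas replicate 3, at 0.00766. *Hoxa10* had the next smallest p, with 30.9, 24.1 and 34.8 CPM in WT Gas against 17.7, 20.5 and 18.5 in WT Sol and a log2 fold change of 0.67 (SE 0.208 and adjusted p = 0.0970). All Gas libraries were above all Sol libraries for *Hoxa10*, a gene of the proximal hindlimb, but it was not called.

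The calls in WT fell in the HoxC and HoxD clusters. The 9 tested HoxA genes had a median log2 fold change of 0.67 and a range from -0.55 to 1.04, and 0 were called. The 8 tested HoxB genes had a median of 0.30 and a range from -0.24 to 1.05, and 0 were called. The 7 HoxC genes ranged from -0.46 to 1.28 around a median of 0.51, and the 5 HoxD genes had a median of 2.44. Of the 29 tested members, 10 had an unadjusted p under 0.05, where 24.7% of all tested genes did, and the libraries of the muscles did not overlap for 12 members, where 31% of all tested genes did not overlap. Without WT Gas replicate 3 and WT Sol replicate 2, 9 members were called, the 5 above and *Hoxa9*, *Hoxa10*, *Hoxa13* and *Hoxc9*. These libraries had the highest ribosomal protein level in their groups, and the setting was chosen after seeing the data. It left only replicates 1 and 2 of WT Gas and replicates 1 and 3 of WT Sol. In that setting 35.2% of all tested genes were called, 17.7% higher in Gas, so the 9 of 29 members were no larger a share than that of all genes in both directions, while all 9 were higher.

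**Figure D2:**
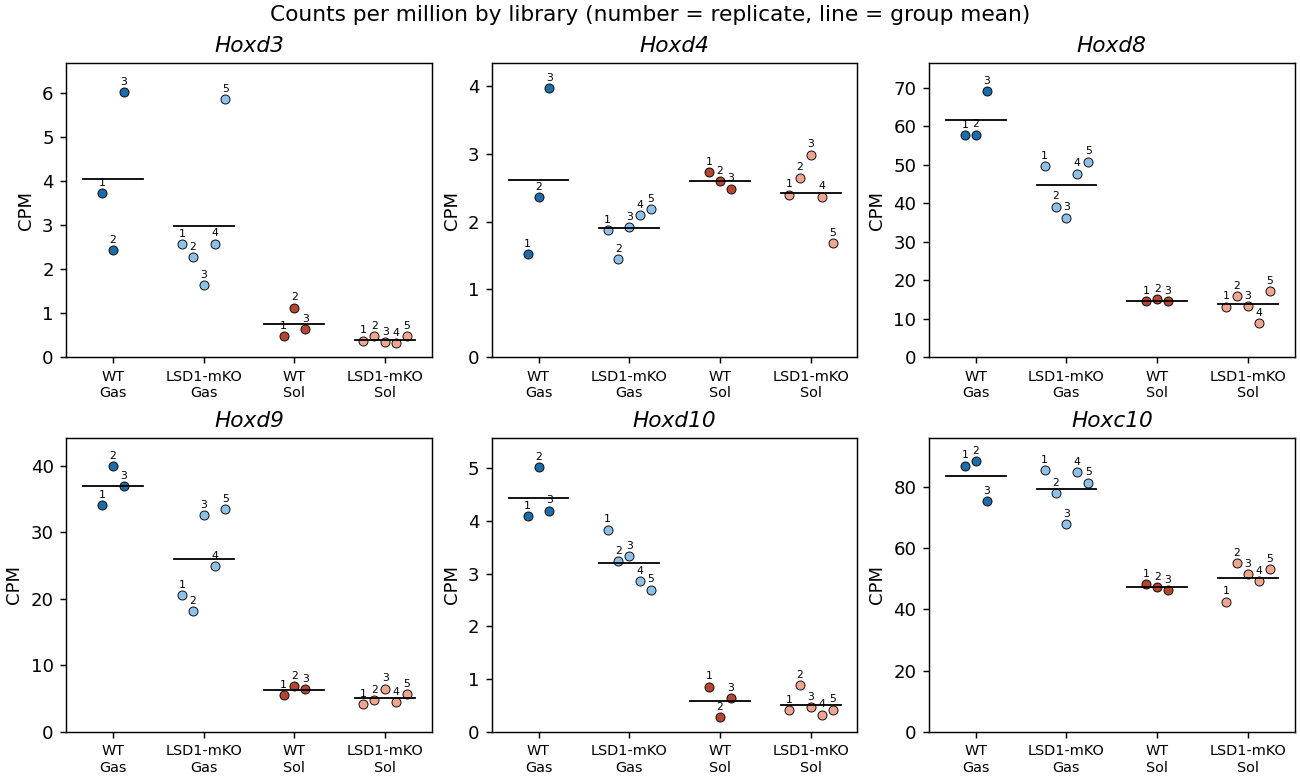
CPM of 6 *Hox* genes in each library, by group, with the replicate number above each point and a line at the group mean (3 WT and 5 LSD1-mKO libraries a muscle, linear axis from 0). For *Hoxd3*, *Hoxd8*, *Hoxd9*, *Hoxd10* and *Hoxc10* all Gas libraries lie above all Sol libraries, and for *Hoxd4* the muscles overlap.

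The summed CPM of a cluster shows how the mixture of *Hox* transcripts differs between the muscles. In WT the HoxD genes summed to 101 to 120 CPM in Gas and to 24.4 to 26.1 in Sol, which was 31.3 to 34.3% of the *Hox* CPM of a Gas library and 14.2 to 17.1% of a Sol library. HoxC genes summed to 120 to 141 CPM in WT Gas and 66.6 to 80.5 in WT Sol, HoxA genes to 70.8 to 102 and 44.7 to 63.4, and HoxB genes to 12.0 to 20.6 and 10.2 to 13.5. As shares of the *Hox* CPM, HoxC and HoxA were thus lower in Gas, HoxC at 36.7 to 39.1% against 43.9 to 47.1% in Sol, and HoxA at 22.5 to 26.6% against 30.4 to 34.6%. The largest single gene of the HoxD sum in both muscles was *Hoxd8*, at 18.0 to 18.8% of the *Hox* CPM of a WT Gas library and 8.18 to 9.93% of a WT Sol library.

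The comparison of the muscles was repeated in LSD1-mKO mice, which are other animals. The 4 HoxD genes and *Hoxc10* were higher in Gas again, and 5 posterior genes of the HoxA and HoxC clusters were also called higher, *Hoxa9*, *Hoxa10*, *Hoxa11*, *Hoxa13* and *Hoxc9*. *Hoxc5*, an anterior to central gene, was called lower in Gas. Of 30 tested members, 11 were called, 10 higher and 1 lower, where 29.7% of all 13151 tested genes were called, 14.8% higher and 15% lower. The share of members called was near that of all genes for both directions together, and above it for those higher in Gas. The median log2 fold change of the members was 0.33, against 0.01 over all genes.

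*Hoxd9* was at 20.5, 18.2, 32.6, 25.0 and 33.5 CPM in the 5 LSD1-mKO Gas libraries and at 4.15, 4.77, 6.49, 4.49 and 5.66 in the 5 LSD1-mKO Sol libraries. The Gas libraries spread more than in WT, yet all lay above the Sol libraries, and the log2 fold change was 2.35 (SE 0.20 and adjusted p = 6.18e-06, edgeR). *Hoxd8* was at 49.7, 39.1, 36.3, 47.8 and 50.9 CPM in Gas and at 13.2, 15.9, 13.4, 8.95 and 17.1 in Sol, a log2 fold change of 1.72 (SE 0.173 and adjusted p = 1.95e-05). *Hoxd10* was at 3.83, 3.23, 3.34, 2.86 and 2.70 CPM in Gas and at 0.411, 0.883, 0.469, 0.327 and 0.419 in Sol, a log2 fold change of 2.71 (SE 0.269 and adjusted p = 1.80e-05). Neither gene had overlapping groups.

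*Hoxd3* was at 2.57, 2.27, 1.63, 2.57 and 5.85 CPM in LSD1-mKO Gas and at 0.377, 0.471, 0.341, 0.327 and 0.472 in LSD1-mKO Sol. The log2 fold change of 2.92 (SE 0.359 and adjusted p = 8.63e-05) was 2.54 at the lowest when a library was left out. The high value was that of Gas replicate 5, which had the highest ribosomal protein level of its group, at a mean log2 CPM of 8.05 against 7.20 to 7.50, and its part in the value was not tested. *Hoxd4* was at 1.87, 1.44, 1.92, 2.10 and 2.18 CPM in Gas and at 2.40, 2.65, 2.99, 2.37 and 1.68 in Sol. The groups overlapped, and *Hoxd4* was not called, at a log2 fold change of -0.34 (SE 0.209 and adjusted p = 0.242).

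*Hoxc10* was at 85.5, 77.9, 67.7, 84.7 and 81.4 CPM in LSD1-mKO Gas and at 42.5, 55.1, 51.5, 49.3 and 53.2 in LSD1-mKO Sol. Its log2 fold change was 0.67 (SE 0.114 and adjusted p = 0.000906), without overlap. *Hoxa13*, a gene of the distal limb, was at 2.67, 3.58, 2.49, 3.15 and 2.75 CPM in Gas and at 1.37, 1.12, 1.75, 1.14 and 1.68 in Sol, a log2 fold change of 1.05 (SE 0.208 and adjusted p = 0.00246) without overlap. *Hoxc9* was at 13.7, 12.1, 15.3, 12.7 and 22.7 CPM in Gas and at 7.88, 8.53, 10.8, 8.17 and 10.1 in Sol, again without overlap, a log2 fold change of 0.76 (SE 0.181 and adjusted p = 0.00746). *Hoxc5* was the 1 member lower in Gas, at 1.64, 1.38, 0.497, 1.33 and 1.09 CPM against 3.53, 2.0, 2.01, 2.08 and 2.41 in Sol. Its log2 fold change was -1.0 (SE 0.294 and adjusted p = 0.0220), and without LSD1-mKO Sol replicate 1, its highest library, the adjusted p was 0.0619.

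*Hoxa9*, *Hoxa10* and *Hoxa11*, posterior HoxA genes used in the proximal and middle limb, were called with smaller differences and overlapping libraries. *Hoxa9* was at 16.6, 18.7, 18.0, 15.2 and 22.7 CPM in Gas and at 8.19, 10.5, 15.2, 10.9 and 15.4 in Sol (log2 fold change 0.61, SE 0.185 and adjusted p = 0.0251). *Hoxa10* was at 27.4, 27.9, 20.4, 21.7 and 27.1 CPM in Gas and at 17.4, 18.2, 18.6, 17.8 and 21.6 in Sol (log2 fold change 0.42, SE 0.129 and adjusted p = 0.0252). *Hoxa11* was at 5.33, 6.26, 4.26, 3.34 and 4.47 CPM in Gas and at 3.63, 3.06, 3.16, 2.78 and 3.72 in Sol (log2 fold change 0.55, SE 0.190 and adjusted p = 0.0431). These 3 calls were lost in some fits that left out 1 library, *Hoxa9* in 2 of 10 and *Hoxa10* and *Hoxa11* in 5 of 10 each, with an adjusted p of at most 0.115. *Hoxa11* also shares 24.8% of its exon bases with the antisense gene *Hoxa11os*, and the counting did not use strand, so reads of the 2 cannot be told apart there.

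In LSD1-mKO mice the replicate numbers may pair the libraries of the muscles, as described with the processing. With the replicate block 13 members were called, the 11 above and *Hoxa4* and *Hoxa5*, both higher in Gas, where the block called 38.5% of all tested genes, 19.2% higher. In the fit without the block, which called 29.7% of all tested genes, 8 of 10 tested members of paralogs 9 to 13 were called. In the same fit 1 of 9 tested members of paralogs 1 to 4 and 2 of 11 of paralogs 5 to 8 were called. The groups did not overlap for 8 of the 30 tested members, where 21.4% of all tested genes did not overlap. The 8 tested HoxB genes held 0 calls in either genotype, and in LSD1-mKO their log2 fold changes lay between -0.59 and 0.39.

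**Figure D3:**
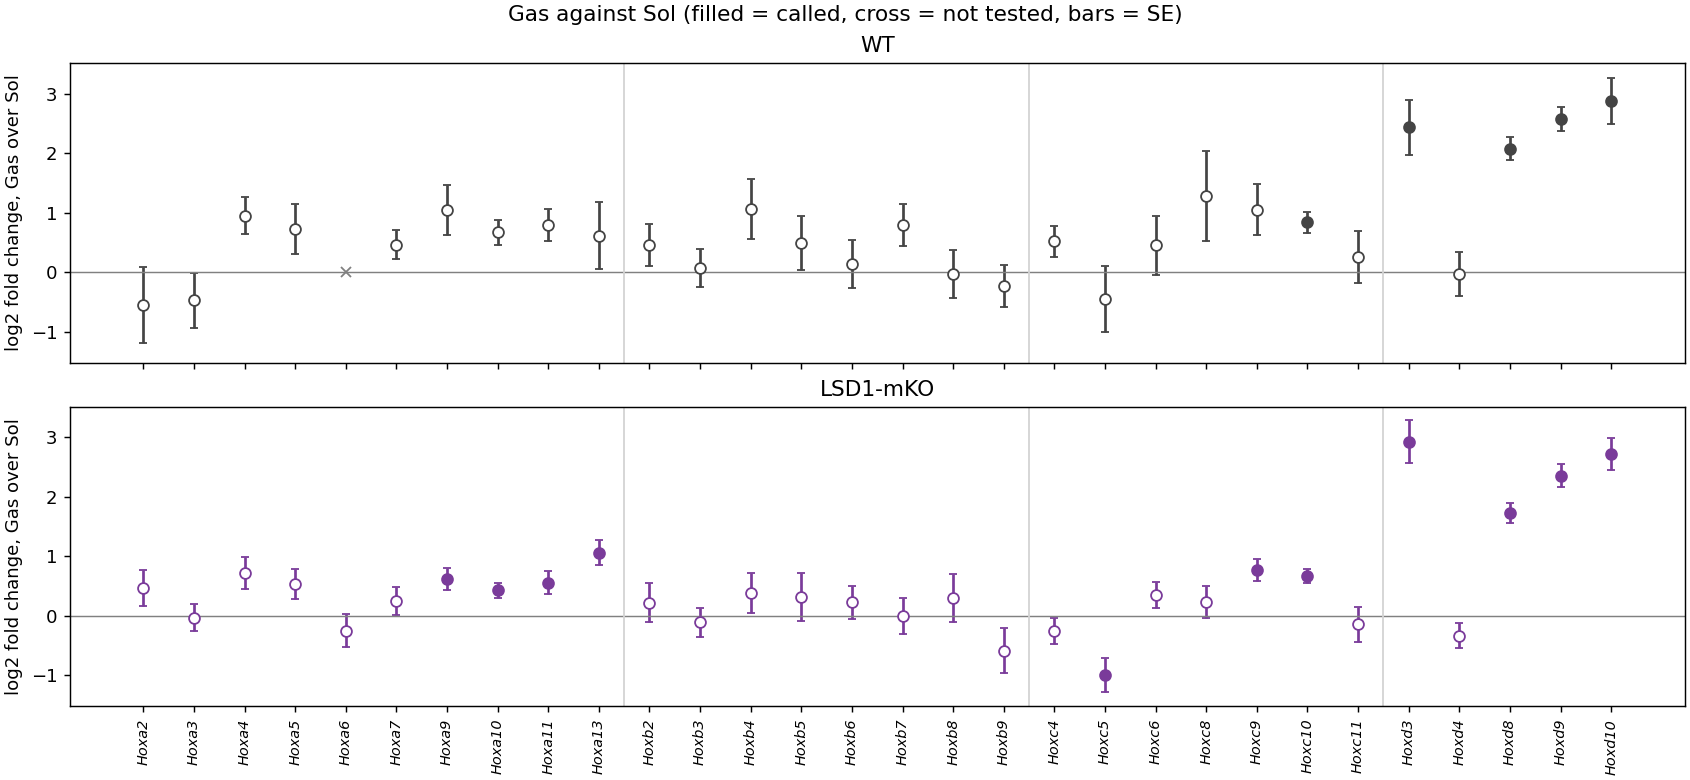
Log2 fold change of Gas over Sol in WT (top, 3 against 3 libraries) and LSD1-mKO mice (bottom, 5 against 5), by gene in cluster order. Bars give the standard error, filled points were called by edgeR at an adjusted p under 0.05 and a cross marks a gene not tested. *Hoxd3*, *Hoxd8*, *Hoxd9* and *Hoxd10* lie at 1.72 or above in both panels, with *Hoxd4* at or below 0 in both.

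Markers of the fiber types differed between the muscles, while few markers of other cell types were called in WT. All 7 slow fiber markers were lower in Gas in both genotypes, and in WT their summed level was 994 to 2211 CPM in Gas against 27867 to 32191 in Sol. Of the 7 fast fiber markers, 4 were higher in Gas in WT and 6 in LSD1-mKO. Of the 8 markers of fibroblasts and fibro-adipogenic progenitors, 1 was called higher in Gas in WT, and their sum was 1552 to 2142 CPM in WT Gas and 1038 to 1678 in WT Sol. In LSD1-mKO mice 1 of these 8 was higher and 1 lower, with sums of 985 to 1219 in Gas and 689 to 2137 in Sol. Of 5 Schwann cell markers 0 were called in WT and 4 were higher in Gas in LSD1-mKO, and of 6 tendon markers 0 were called in WT and 2 were lower in Gas in LSD1-mKO. Of the 6 pericyte and smooth muscle markers, 0 were called in WT and 3 were lower in Gas in LSD1-mKO. Of the 6 endothelial and 5 satellite cell markers 0 were called in WT, and 1 of each list was lower in Gas in LSD1-mKO. Over all tested genes 7.81% were called in WT, and in LSD1-mKO 14.8% were called higher in Gas and 15% lower. Of the 5 adipocyte markers 0 were called in either genotype, and of the 6 leukocyte markers 0 were called in WT and 1 was higher and 1 lower in Gas in LSD1-mKO. No list held a marker at 0 reads throughout a group, and the part of these cells in the *Hox* differences was not tested.

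Hox proteins bind DNA with partners of the TALE class, the Pbx, Meis, Pknox and Tgif proteins. Of 11 such genes 10 were tested, and in WT 1 was called, *Tgif1*, which was higher in Gas by 1.38 on the log2 scale (SE 0.240 and adjusted p = 0.0142). In LSD1-mKO 2 were higher in Gas, *Tgif1* and *Meis2*, and 2 were lower, *Meis1* among them. Over all genes tested there, 14.8% were called higher and 15% lower. *Meis2* was at 1.45 ± 0.554 CPM in Gas and 0.552 ± 0.102 in Sol, a log2 fold change of 1.41 (SE 0.298 and adjusted p = 0.00373).

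Trithorax and Polycomb proteins keep *Hox* clusters active or silent. Of 27 of their genes, all tested, 0 were called between the muscles in WT, and 3 were higher in Gas in LSD1-mKO, *Eed*, *Ring1* and *Cbx7*. Over all genes tested in LSD1-mKO 29.7% were called, 14.8% higher in Gas, so these regulators were not called more often than other genes. *Eed*, with the smallest p of the 3, differed by 0.71 on the log2 scale (SE 0.138 and adjusted p = 0.00222). Of 12 other genes of limb and axial identity 4 passed the filter. *Tbx4*, which marks the hindlimb, was at 3.18 ± 0.324 CPM in WT Gas and 5.43 ± 1.92 in WT Sol (n = 3), and it was lower in Gas in LSD1-mKO by 0.53 (log2 fold change -0.53, SE 0.165 and adjusted p = 0.0283). *Tbx5*, its forelimb counterpart, was at most at a group mean of 0.154 CPM, and *Pitx1*, a further hindlimb gene, was at 1.42 ± 0.732 CPM in WT Gas and 1.43 ± 0.865 in WT Sol.

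Of 15 noncoding transcripts of the clusters 14 were in the tables and 3 were tested between the muscles. In WT 0 were called. In LSD1-mKO *Hoxa11os*, the antisense partner of *Hoxa11*, was higher in Gas by 1.17 on the log2 scale (SE 0.185 and adjusted p = 0.000552), and *Hotairm1*, a transcript of the anterior HoxA cluster, by 1.68 (SE 0.317 and adjusted p = 0.00178). *Hotair*, a transcript of the HoxC cluster between *Hoxc11* and *Hoxc12*, was at 0.828 ± 0.515 CPM in LSD1-mKO Gas and 1.73 ± 0.386 in LSD1-mKO Sol, a log2 fold change of -1.04 (SE 0.342 and adjusted p = 0.0362).

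Between LSD1-mKO and WT the question was whether the loss of a histone demethylase of muscle goes with a change of *Hox* levels. In Gas 0 of 28 tested members were called, where 0.0307% of the 13040 tested genes were called. Of the 28 members 24 had a negative log2 fold change, the median was -0.43 against 0.01 over all genes, and 5 had an unadjusted p under 0.05, where 9.06% of all genes did. In Sol 0 of 29 tested members were called, where 0.967% of the 13342 tested genes were called, with 20 negative values, a median of -0.12 against -0.01 over all genes, and 2 members with an unadjusted p under 0.05, where 15.5% of all genes had one. DESeq2 also called 0 members in either muscle. These comparisons share each group of libraries with the comparisons of the muscles, so their values are not independent of those above. An adjusted p above the threshold does not show that the genotypes had the same levels.

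In Gas the smallest p were those of *Hoxd8*, *Hoxb7* and *Hoxb2*. *Hoxd8*, with the values given above for each library, had a mean of 44.7 ± 6.59 CPM in LSD1-mKO (SD, n = 5) and 61.6 ± 6.52 in WT (n = 3), and a log2 fold change of -0.46 (SE 0.177 and adjusted p = 0.523, edgeR). All LSD1-mKO Gas libraries were below all WT Gas libraries for *Hoxd8*, and the same held for *Hoxd9*, at 26.0 ± 6.94 against 37.0 ± 2.94 CPM, and *Hoxd10*, at 3.19 ± 0.445 against 4.43 ± 0.514. *Hoxd9* had a log2 fold change of -0.51 (SE 0.224 and adjusted p = 0.548) and *Hoxd10* one of -0.47 (SE 0.214 and adjusted p = 0.555). *Hoxb7* was at 1.17, 0.826, 1.70, 2.10 and 2.35 CPM in LSD1-mKO Gas and at 2.25, 2.48 and 4.53 in WT Gas, with overlap and a log2 fold change of -0.90 (SE 0.381 and adjusted p = 0.544). *Hoxb2* was at 0.795, 1.03, 0.852, 1.05 and 1.03 CPM in LSD1-mKO Gas and at 1.57, 1.12 and 2.04 in WT Gas, a log2 fold change of -0.70 (SE 0.301 and adjusted p = 0.548) without overlap. *Hoxd8*, *Hoxd9*, *Hoxd10* and *Hoxb2* were the 4 of 28 members without overlap, where 6.95% of all tested genes did not overlap.

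The median of the members in Gas depended on 1 library. Without WT Gas replicate 3 it was -0.20, with 25 of 30 tested members negative, while over the other fits that left out 1 library it lay between -0.53 and -0.35. The HoxD genes had a narrow range of differences between the genotypes in Gas, from -0.51 to -0.40 for its 5 tested members, around a median of -0.46. The 7 tested HoxB genes were also all negative, with a median of -0.59, and the medians of the HoxC and HoxA genes were -0.35 and -0.10. The HoxD sum was 64.3 to 95.5 CPM in LSD1-mKO Gas and 101 to 120 in WT Gas. The sum of all members was 249 to 312 CPM in LSD1-mKO Gas and 307 to 384 in WT Gas. Beside these values, the summed fibroblast and fibro-adipogenic progenitor markers, of cells that the Cre does not reach, were 985 to 1219 CPM in LSD1-mKO Gas and 1552 to 2142 in WT Gas, with 0 of 8 called. Their median log2 fold change was -0.49, and other marker lists also moved. The medians were -0.68 for fast fiber, -0.54 for tendon, 0.46 for slow fiber and 0.49 for Schwann cell markers, with 0 called in each. The part of any of these cells in the result was not tested.

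In Sol *Hoxc5* had the smallest p. It was at 3.53, 2.0, 2.01, 2.08 and 2.41 CPM in LSD1-mKO and at 1.39, 1.26 and 1.10 in WT, so that all LSD1-mKO libraries were above all WT libraries. The log2 fold change was 0.94 (SE 0.279 and adjusted p = 0.138), and *Hoxc5* was the 1 of 29 tested members without overlap, where 10.8% of all tested genes did not overlap. *Hoxc6* was at 2.26, 2.18, 2.01, 2.04 and 3.04 CPM in LSD1-mKO Sol and at 3.63, 3.44 and 2.60 in WT Sol, a log2 fold change of -0.50 (SE 0.221 and adjusted p = 0.308) with overlap. *Hoxa2*, an anterior gene, was at 0.617, 0.530, 1.02, 0.817 and 1.42 CPM in LSD1-mKO Sol and at 0.802, 2.67 and 1.5 in WT Sol, a log2 fold change of -0.91 (SE 0.425 and adjusted p = 0.336). Of the HoxD genes in Sol, *Hoxd8* was at 13.7 ± 3.15 against 14.7 ± 0.286 CPM, a log2 fold change of -0.12 (SE 0.190 and adjusted p = 0.823), and *Hoxd9* at 5.11 ± 0.952 against 6.27 ± 0.700, one of -0.31 (SE 0.194 and adjusted p = 0.491). *Hoxd3* was below the count filter in Sol and was not tested, and its 0.327 to 0.472 CPM in LSD1-mKO lay below its 0.481 to 1.12 in WT, on 8 to 16 reads a library. Without WT Sol replicate 2 the median over the members was 0.00, with 14 positive and 15 negative values.

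**Figure D4:**
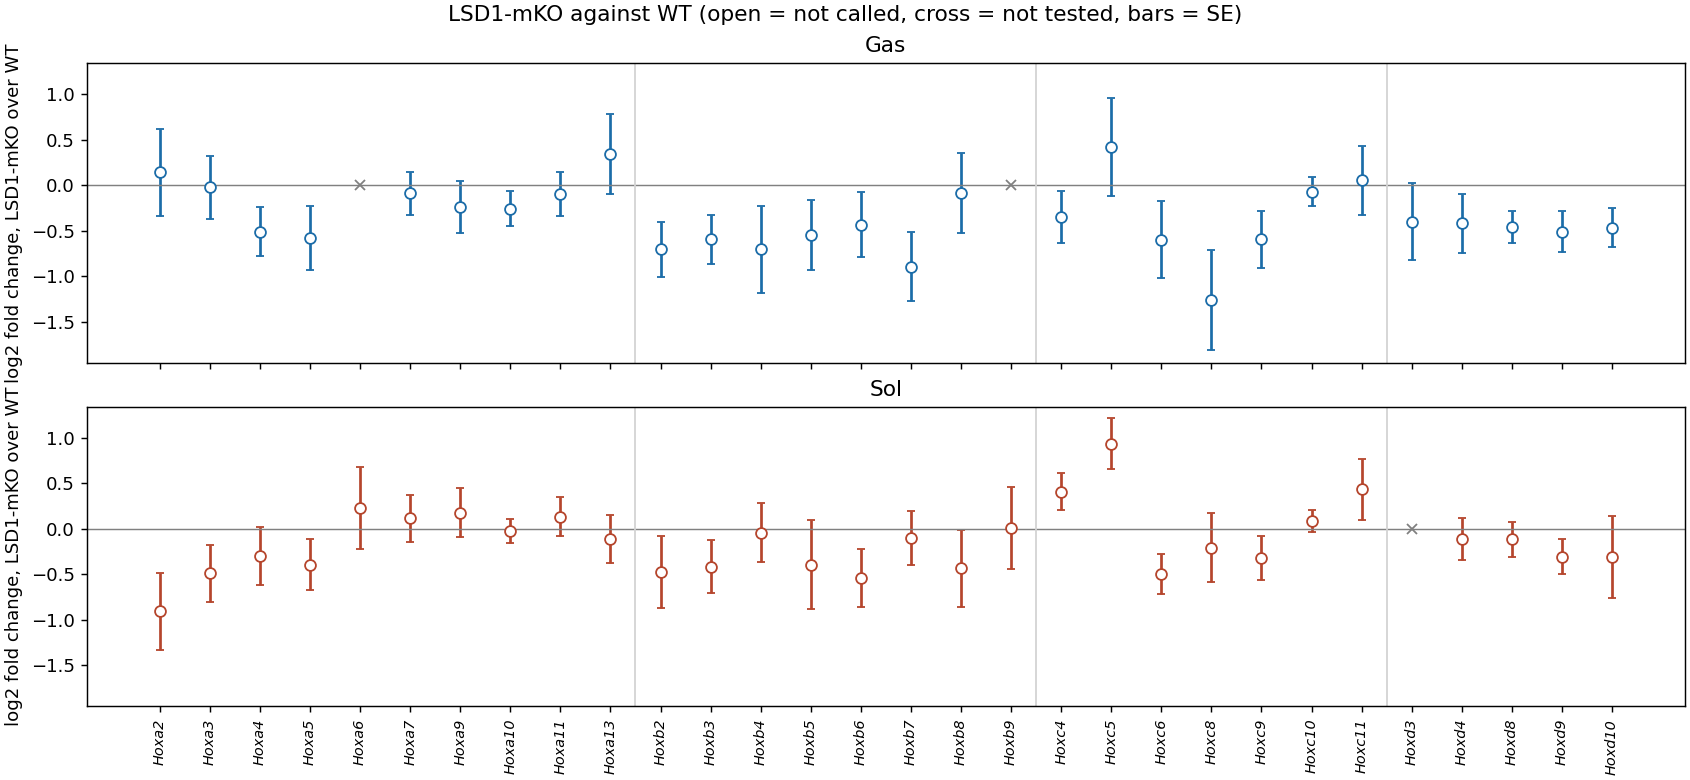
Log2 fold change of LSD1-mKO over WT in Gas (top) and Sol (bottom), 5 against 3 libraries each, by gene in cluster order. Bars give the standard error, open points were not called and a cross marks a gene not tested. All points are open, 24 of 28 lie below 0 in Gas and 20 of 29 in Sol.

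The difference between the genotype effects in Gas and Sol was tested as an interaction over the 16 libraries. Of 30 tested members 0 were called, as were 0 of the 13749 tested genes (a share of 0%), and 1 member had an unadjusted p under 0.05, where 4.88% of all genes did. That member was *Hoxc4*, with an interaction of -0.77 (SE 0.346 and adjusted p = 0.987, edgeR). DESeq2 also called 0 members, and 21 genes in all. For the 4 HoxD genes that differed between the muscles the interaction was -0.36 (SE 0.260) for *Hoxd8*, -0.22 (SE 0.295) for *Hoxd9*, -0.17 (SE 0.467) for *Hoxd10* and 0.48 (SE 0.597) for *Hoxd3*. Of the 30 members 23 had a negative value, but 15 were negative and 15 positive without WT Gas replicate 3. The number of members called between the muscles was larger in LSD1-mKO than in WT, but the difference of the effects was called for 0 members.

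The *Hox* genes also varied among the libraries of 1 group, most of all in WT Gas, where replicate 3 differed from the other 2. It was lower in *Hoxa13*, at 0.453 CPM against 3.25 and 2.90 in replicates 1 and 2, and in *Hoxc11*, at 2.27 against 7.12 and 8.75. It was higher in *Hoxc8*, at 12.2 CPM against 2.25 in each of the others, in *Hoxc9*, at 37.5 against 15.9 and 16.6, and in *Hoxa9*, at 33.5 against 12.0 and 19.7. It was also the lowest of the 3 in *Hoxc5*, at 0.227 CPM or 2 reads against 1.62 and 0.650, and in the anterior and central genes *Hoxa2*, *Hoxa3*, *Hoxa7* and *Hoxb8*. *Hoxa2* was at 0.340 against 1.99 and 0.768, *Hoxa3* at 1.13 against 3.19 and 2.13, *Hoxa7* at 4.76 against 7.01 and 6.09, and *Hoxb8* at 0.453 against 0.994 and 0.946. Other anterior and central genes were highest in replicate 3. Among them were *Hoxa5*, at 13.3 against 6.18 and 5.61, *Hoxb4*, at 5.44 against 1.99 and 1.89, and *Hoxc6*, at 8.50 against 2.46 and 2.66. The low and high genes thus did not follow the order of the clusters. These are values of 1 library with no test, and the same library had the high ribosomal protein level, whose part was not tested. In the fit without it *Hoxa13* was called higher in Gas in WT, which brought the called members to 6 of 29, where 12.3% of all tested genes were called, 6.26% higher.

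**Figure D5:**
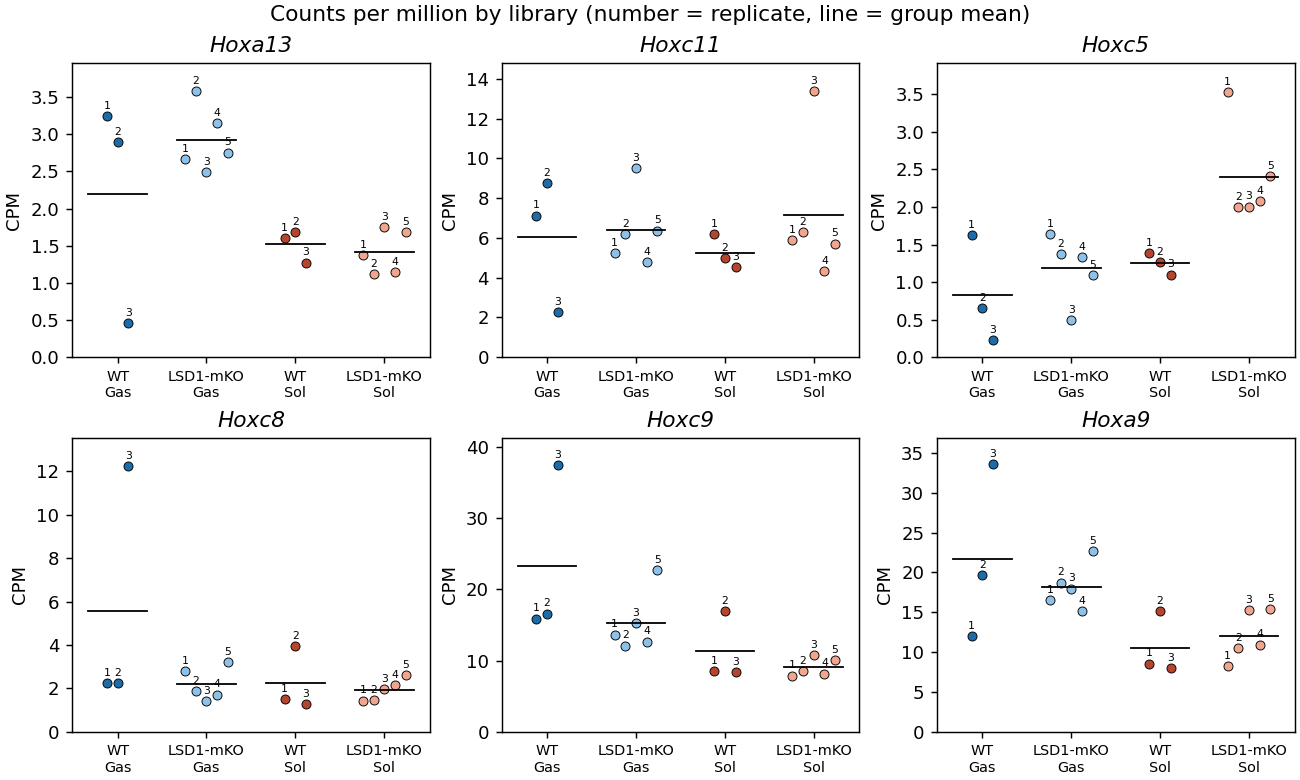
CPM of 6 *Hox* genes in each library, by group, with the replicate number above each point and a line at the group mean (linear axis from 0). WT Gas replicate 3 is the lowest Gas library for *Hoxa13*, *Hoxc11* and *Hoxc5* and the highest for *Hoxc8*, *Hoxc9* and *Hoxa9*.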

How the data were processed

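Single-end reads of 75 bp from 16 poly(A) RNA libraries were aligned by the authors to mm10 with STAR (version not given in the sources used here). Counting over exons used featureCounts 1.5.2 and the iGenomes UCSC annotation, per the file headers. The deposited tables hold raw counts of 24421 genes, with no strand option named and reads of several places or genes left out. The deposited comparison tables of the authors (log2 fold changes and p-values) were not used.

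Groups and replicate numbers came from the labels, which do not say whether libraries of a group are separate mice, so p-values measure only the spread between libraries. Counts were analysed with edgeR 4.0.16 in R 4.3.3 (filterByExpr with a minimum count of 10, TMM, quasi-likelihood F-test, two-sided, Benjamini-Hochberg over all tested genes). Each of the 4 group comparisons was fitted on its own libraries and the interaction on all 16. SE was taken as the size of the log2 fold change over the square root of its F statistic. RPKM used exon lengths of GENCODE vM21 transcripts with a RefSeq match, which may differ from the annotation that was counted. The 3 reads behind a limit cover counting error only. No 2 libraries of the same group agreed within sampling noise. The replicate numbers of LSD1-mKO Gas and Sol were taken as a possible pairing from the data. Each Gas library correlated best with the Sol library of its number in the deviations from the group means, at 0.315, 0.205, 0.333, 0.202 and 0.304. Replicates 1 and 2 of LSD1-mKO and WT Gas, from different animals, also correlated at 0.203 and 0.280, so these values do not settle the pairing. Alternatives were RLE scaling, no filter, DESeq2 1.42.0, the replicate block, all 16 libraries in one fit, and each library left out. The scripts were tested on simulated data.

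Named with their values are the members called in any comparison, the highest of each cluster by RPKM and those with the 3 smallest p in each group comparison, and further members named for the spread of WT Gas replicate 3 or as neighbours were chosen after their values were seen. The members and lists were chosen with earlier results of these data known. The values of some genes are not reported here.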

Additional observations from a re-analysis of the deposited data

Results flagged for a closer look

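In the LSD1-mKO groups of 5, a library was taken as standing apart where its distance to the nearest other library exceeded Dixon's critical share of 0.71 of the group's range. Over 57 groups of values from tested members this happened 5 times, where chance gives about 1 in 20, or 2.85. *Hoxd3* was at 5.85 CPM in LSD1-mKO Gas replicate 5 and between 1.63 and 2.57 in the other 4. In LSD1-mKO Sol, *Hoxc5* was at 3.53 CPM in replicate 1 (others 2.0 to 2.41), *Hoxc6* at 3.04 in replicate 5 (others 2.01 to 2.26), *Hoxc11* at 13.4 in replicate 3 (others 4.33 to 6.30) and *Hoxd10* at 0.883 in replicate 2 (others 0.327 to 0.469). The 4 such values of Sol fell in 4 different libraries. No explanation of these values was tested.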

How the results depend on the processing

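For the WT muscles, 5 members and 1011 genes were called. DESeq2 called 1898 genes, the replicate block 3 members and 396 genes, and all 16 libraries in one fit 9 members and 2337 genes. Without WT Gas replicate 3 and WT Sol replicate 2, chosen after seeing the data for their high ribosomal protein level, 9 members and 4596 genes were called. With 1 library left out, 3 to 6 members and 308 to 1633 genes were called, and *Hoxd8*, *Hoxd9* and *Hoxd10* kept their calls in each of these 6 fits. The WT and genotype replicate numbers share only a number, with correlations from -0.476 to 0.280. In LSD1-mKO, 8 to 11 members and 2986 to 4005 genes were called with 1 library left out, and 5067 genes with the block. For LSD1-mKO against WT in Gas, 4 genes were called, and 10 without the filter, 132 by DESeq2, 62 in one fit and 1 to 7 with 1 library left out. In Sol, 129 genes were called, and 336 without the filter, 605 by DESeq2, 412 with the block and 11 to 228 with 1 left out. For the interaction 21 genes were called by DESeq2, 1 with the block and 0 to 1 with 1 left out. Single libraries moved these counts. For the WT muscles they were 308, 317, 410 and 595 with Sol library 3, Sol library 1, Gas library 1 or Gas library 2 of WT left out, and 1633 with WT Gas library 3 left out. Between the genotypes in Sol they were 11, 13 and 23 when WT Sol library 3, 1 or 2 was missing, 35 and 67 when LSD1-mKO Sol library 2 or 3 was, and 228 when its library 5 was. In Gas they were 1 when WT library 1 or 2 was missing, 2 for LSD1-mKO library 2 or 5 and 7 for WT library 3. For the interaction the count of 1 was the fit that lacked LSD1-mKO Sol library 3. The count of called members stayed at 0 for both genotype comparisons and the interaction in all these fits. Why these counts differ was not tested. Some small differences changed sign, none of them called. Between the LSD1-mKO muscles, *Hoxb7* was at 0.0075 on the log2 scale under RLE scaling and 0.0079 by DESeq2. In Sol, *Hoxd4* was at 0.024 with the block and *Hoxa10* at 0.048 without WT Sol replicate 2. Without WT Gas replicate 3, WT Sol replicate 2 and LSD1-mKO Gas replicate 5, the interaction of *Hoxd4* was 0.015 and that of *Hoxd10* 0.16. With 1 library left out the ranges were -0.42 to 0.25 for *Hoxd4* between the WT muscles, -0.17 to 0.16 for *Hoxb7* between the LSD1-mKO muscles, -0.076 to 0.048 for *Hoxa10*, -0.22 to 0.054 for *Hoxb7*, -0.21 to 0.011 for *Hoxd8* and -0.61 to 0.058 for *Hoxd10* between the genotypes in Sol, and -0.60 to 0.080 for *Hoxd4* and -0.51 to 0.14 for *Hoxd10* in the interaction. Of 779 log2 fold changes under alternatives, 727 kept direction and call, 27 lost the call, 3 gained it and 22 changed sign. At 0.2 and 1 CPM, 30 and 27 members were detected in Gas, and 31 and 23 in Sol. Members near 1 CPM rest on few reads.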
